A study of Homo sapiens with 12 samples.

Results

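RNA from dormant PC9 cells was set against RNA from dormant HCC827 cells, by gene, in 4 of the 12 libraries of the series. Both are established human lung cancer lines with a mutant EGFR gene. The 4 libraries were taken by their labels as 2 of dormant PC9 and 2 of dormant HCC827, and 2 libraries of each line grown in the solvent DMSO served to ask which differences the lines also had there. Dormant is the submitters' word for cells kept for 2 weeks in 100 nM osimertinib with 30 nM trametinib, while DMSO cells were treated for 24 hours. Duration and drug therefore cannot be told apart between dormant and DMSO cells, but both lines had the same scheme. Each line stands for its own isolate only, so a difference between PC9 and HCC827 need not hold for other EGFR-mutant cells. The labels describe duplicate plates and say nothing of separate cultures, so every p-value measures the spread between these samples.

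EGFR is a receptor tyrosine kinase that feeds the RAS, RAF, MEK and ERK cascade, and its mutant forms keep that cascade on without ligand. Osimertinib blocks mutant EGFR and trametinib blocks MEK, so that the combination acts at the top and in the middle of the same chain. Cells that outlive such drugs for weeks are studied as a source of relapse, and the study's title concerns YAP, a partner of the TEAD transcription factors, in cells of this kind. YAP and TEAD turn on genes of the matrix, of growth and of survival.

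Values are FPKM as deposited, fragments scaled by gene length and by the fragments mapped. Tests used log2(FPKM + 1), where adding 1 makes the difference of a low gene smaller than the ratio of its values. A difference is PC9 minus HCC827 on that scale with its SE, so that a positive one means higher in PC9. A gene entered the limma test when 2 or more of the 8 libraries had it at 1 FPKM or above, and a gene was called at a Benjamini-Hochberg adjusted p under 0.05 over all 13136 tested genes. FPKM summed to between 820500 and 1159000 per library, and the number of reads is unknown. Steps in the FPKM of U6 pseudogenes put the 4 HCC827 libraries at 63.38% to 76.27% of the depth of the deepest library and the 4 PC9 libraries at 93.75% to 100%. These estimates rest on few values, at the fewest 7 of 20 on the step in the second dormant PC9 library. The lower estimate for HCC827 coincides with the line, and the part of depth in the results was not tested.

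Replicates correlated at 0.979 in dormant PC9, 0.986 in dormant HCC827 and 0.991 in DMSO PC9 across genes, which are not independent replicates, and at 0.903 in DMSO HCC827. The second DMSO HCC827 library stood apart. There ACTB, a gene of the actin skeleton, was at 1842 FPKM, while the other 7 libraries held 7915 to 14680 FPKM. Class counts over all genes are therefore given with and without it, and so are the counts of some single lists. Leaving it out keeps every dormant difference and changes only the estimate of the spread. More genes were then called between the dormant lines over all genes, so a list count given without it stands beside that general rise. All 8 epithelial marker genes reached 1 FPKM in every library. They summed to 1275 FPKM in the second DMSO HCC827 library and to 10020 FPKM or more in each of the others. None of the 6 lung adenocarcinoma markers did so in any PC9 library, against 3 of 6 in both dormant HCC827 libraries, where the aspartic protease gene NAPSA led with 36.56 and 35.27 FPKM. Endothelial markers summed to at most 0.24 FPKM and erythroid markers to at most 0.295 FPKM in any library. Fibroblast markers summed to 1.455 and 2.385 FPKM in dormant PC9 and to 4.73 and 5.545 FPKM in dormant HCC827, with COL1A1 the highest there at 2.83 and 2.695 FPKM. Of the 9 leukocyte markers only CD68 reached 1 FPKM, in all 8 libraries, and the T cell gene CD3E was listed at 0 in every one.

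Dormant PC9 and dormant HCC827 differed in 33.1% of the genes tested, and 53% of the called genes differed the same way between the lines in DMSO. Of 13136 tested genes, 4349 were called between the dormant lines (33.1%). They were 1430 genes higher in dormant PC9 (10.9%) and 2919 lower (22.2%), of which 1174 and 2320 differed by at least 1 log2 unit. The split depends on scaling: 32.9% of called genes were higher in PC9 with values as deposited, 54.8% with median of ratios scaling and 50.4% after quantile normalization. The median over all genes was -0.28 as deposited and 0.01 with median of ratios scaling, so list medians below stand beside -0.28. Between DMSO lines, 1716 genes were higher (13.1%) and 2435 lower (18.5%), with a median of -0.10.

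A gene called with the same sign in both states was counted as shared, and 2303 genes were, 17.5% of those tested. Shared genes made up 55.5% of the DMSO calls, with 854 higher and 1449 lower in PC9. The difference of the 2 differences, dormant minus DMSO, was called in 679 genes (5.17%), 244 positive (1.86%) and 435 negative (3.31%). Among shared genes it was called in 153, with the gap wider in dormant cells in 113 and narrower in 40. A dormant-only gene had to be called between dormant lines and in that difference, not be called in DMSO, and lie within 1 log2 unit there. That gave 341 genes (2.6%), 108 higher and 233 lower in dormant PC9. Another 42 genes (0.32%) were called with opposite signs, and 135 (1.03%) were DMSO-only by the mirror of that rule. Of the dormant calls, 1658 were not called in DMSO and not called in the difference either, so these data do not place them. Without the second DMSO HCC827 library there were 3652 shared, 688 dormant-only, 143 reversed and 259 DMSO-only genes, and 2109 of the 2303 shared and 313 of the 341 dormant-only genes kept their class.

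**Figure D1:**
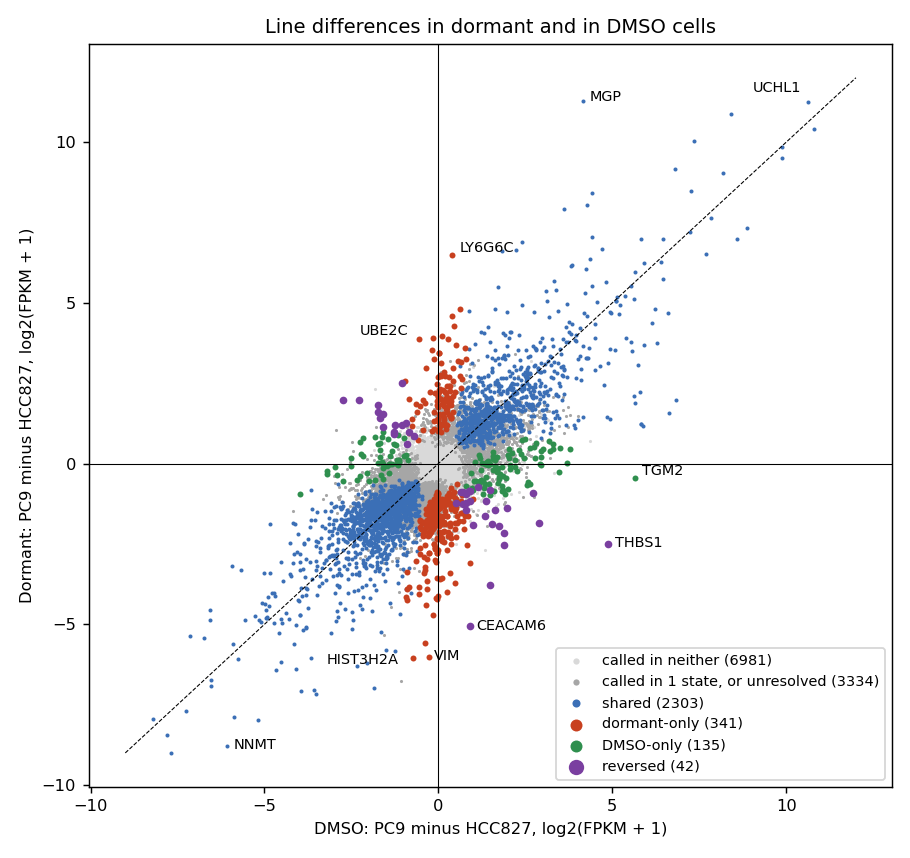
Each point is a tested gene, with its DMSO difference (PC9 minus HCC827) on the x axis and its dormant difference on the y axis, both on log2(FPKM + 1), and colours mark the classes with their numbers. Shared genes lie along the dashed line of equal differences, dormant-only genes along the vertical axis, and reversed genes in the lower right, such as THBS1 and CEACAM6, and in the upper left.

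Genes of xenobiotic and aldehyde metabolism were among the widest gaps in favour of PC9, and most of them were there in DMSO too. Aldo-keto reductases use NADPH to reduce carbonyls, steroids and lipid aldehydes, and the transcription factor NRF2 is known to induce several of them. Of 24 tested aldo-keto reductase, aldehyde dehydrogenase and CYP1 genes, 15 were higher and 2 lower in dormant PC9, with a median difference of 2.17. In DMSO 13 were higher and 2 lower, and 13 were shared. AKR1C1, which reduces progesterone, had 2072 and 1685 FPKM in dormant PC9, against 0.425 and 0.33 FPKM in dormant HCC827. It had 1981 and 1723 FPKM in DMSO PC9, against 0.08 and 0 FPKM in DMSO HCC827, so the gap was there in DMSO too. AKR1C2, its close copy that acts on dihydrotestosterone, had 994 and 898 FPKM in dormant PC9, against 0.045 and 0.025 FPKM in dormant HCC827. No library of one line came near the other line in either gene. The dormant differences were 10.41 ± 0.32 (SE, adjusted p = 1.28e-06) and 9.84 ± 0.30 (SE, adjusted p = 1.28e-06). AKR1C3, which makes testosterone, had 1976 and 1829.9 FPKM in dormant PC9, against 13.3 and 14.4 FPKM in dormant HCC827. Reads from copies this alike may be shared out between them, so the AKR1C genes are uncertain one by one.

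The windows around the start sites of AKR1C1 and AKR1C2 are printed here because both genes are among the 10 highest shared gaps in favour of PC9. From RefSeq (GRCh38.p14), the AKR1C1 window is chr10:4963165-4963464 on the plus strand and the AKR1C2 window chr10:5003808-5004107 on the minus strand, each from 250 bases before to 50 after the start. Both hold an identical run of 245 bases, and capitals mark the bases outside it. Most of each window lies before the start, so the run does not show how alike the 2 RNAs are.
AKR1C1: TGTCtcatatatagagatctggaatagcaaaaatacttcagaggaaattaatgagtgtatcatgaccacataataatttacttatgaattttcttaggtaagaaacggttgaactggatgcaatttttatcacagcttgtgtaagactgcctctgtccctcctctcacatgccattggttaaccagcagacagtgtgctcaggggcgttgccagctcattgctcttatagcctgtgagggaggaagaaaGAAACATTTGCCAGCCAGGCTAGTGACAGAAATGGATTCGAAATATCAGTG
AKR1C2: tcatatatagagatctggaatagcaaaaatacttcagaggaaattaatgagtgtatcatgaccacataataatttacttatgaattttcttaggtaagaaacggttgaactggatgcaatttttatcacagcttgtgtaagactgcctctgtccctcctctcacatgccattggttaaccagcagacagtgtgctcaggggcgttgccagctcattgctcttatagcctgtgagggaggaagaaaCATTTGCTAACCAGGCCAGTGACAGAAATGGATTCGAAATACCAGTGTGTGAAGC

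ALDH3A1, an aldehyde dehydrogenase of cornea and airway that clears lipid aldehydes, had 1448 and 2457 FPKM in dormant PC9, against 0 and 0 FPKM in dormant HCC827. It had 339.5 and 343 FPKM in DMSO PC9, against 0 and 0 FPKM in DMSO HCC827, and the gap widened by 2.46 log2 units in dormant cells (adjusted p = 0.0271). UGT1A6, which couples phenols to glucuronic acid, had 359 and 349 FPKM in dormant PC9, against 0 and 0 FPKM in dormant HCC827, and shares its last exons with the other UGT1A genes. Of 25 tested NRF2 targets and glutathione genes, 17 were higher and 0 lower in dormant PC9, with a median of 1.83, against 15 and 1 in DMSO. GPX2, a glutathione peroxidase of epithelia, had 135 and 181 FPKM in dormant PC9, against 1.19 and 0.88 FPKM in dormant HCC827. GSTM3, a glutathione transferase, had 645 and 918 FPKM in dormant PC9, against 9.22 and 10.3 FPKM in dormant HCC827. In DMSO, GSTM3 had 40.3 and 35 FPKM in PC9, against 1.49 and 1.92 FPKM in HCC827. GPX3, the secreted peroxidase, had 88.6 and 79.4 FPKM in dormant PC9, against 0.625 and 0.17 FPKM in dormant HCC827. In GPX2, GSTM3 and GPX3 both PC9 libraries lay above both HCC827 libraries in dormant cells and in DMSO.

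Genes of stratified epithelium also stood higher in PC9 in both states. Keratins are the filament proteins of epithelial cells, and kallikreins are secreted serine proteases that shed the outer layers of skin. Of 14 tested keratins, 8 were higher and 0 lower in dormant PC9 (median 1.73), and 8 higher and 1 lower in DMSO. KRT13, of non-cornified stratified epithelia, had 785 and 1250.2 FPKM in dormant PC9, against 0.3 and 0.41 FPKM in dormant HCC827. KRT14, of the basal layer, had 33.9 and 44 FPKM in dormant PC9, against 0.47 and 0.38 FPKM in dormant HCC827, but only 2.57 and 1.71 FPKM in DMSO PC9, against 0 and 0 FPKM in DMSO HCC827. Its gap was wider by 3.16 in dormant cells (adjusted p = 0.00358). KRT16 and KRT17, keratins of wounded skin, differed by 4.76 ± 0.40 (SE, adjusted p = 7.6e-05) and 3.49 ± 0.47 (SE, adjusted p = 0.000871) in dormant cells. TRIM29, a ubiquitin ligase of squamous epithelium, had 1035 and 1657 FPKM in dormant PC9, against 1.86 and 1.18 FPKM in dormant HCC827. Of 16 tested S100 and kallikrein genes, 10 were higher and 2 lower in dormant PC9, the same numbers as in DMSO. KLK5 had 2106 and 2999 FPKM in dormant PC9, against 16.4 and 13 FPKM in dormant HCC827, and KLK7 had 313 and 353 FPKM in dormant PC9, against 0.22 and 0.285 FPKM in dormant HCC827. The KLK7 gap was wider by 3.78 in dormant cells (adjusted p = 0.00204), from 20.6 and 19 FPKM in DMSO PC9, against 0.085 and 0.06 FPKM in DMSO HCC827.

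The other genes at the PC9 end came from several families. UCHL1, a ubiquitin hydrolase of neurons, had 2099 and 2839 FPKM in dormant PC9, against 0 and 0 FPKM in dormant HCC827. MGP, a matrix protein that keeps calcium from depositing, had 2380.4 and 2712 FPKM in dormant PC9, against 0.015 and 0.035 FPKM in dormant HCC827. It had 21.7 and 18.4 FPKM in DMSO PC9, against 0.015 and 0.385 FPKM in DMSO HCC827, and its gap was wider by 7.13 in dormant cells (adjusted p = 0.000722). SPP1, the secreted phosphoprotein osteopontin, had 1338 and 1127 FPKM in dormant PC9, against 0.35 and 0 FPKM in dormant HCC827. In DMSO, SPP1 had 263 and 226 FPKM in PC9, against 0.46 and 0.53 FPKM in HCC827. CRIP1, a small LIM protein, had 466 and 772 FPKM in dormant PC9, against 0.095 and 0 FPKM in dormant HCC827. In DMSO, CRIP1 had 112 and 109 FPKM in PC9, against 0 and 0 FPKM in HCC827. In SPP1 and CRIP1, as in MGP, the dormant PC9 libraries lay above the DMSO PC9 libraries while every HCC827 library stayed below 1 FPKM.

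**Figure D2:**
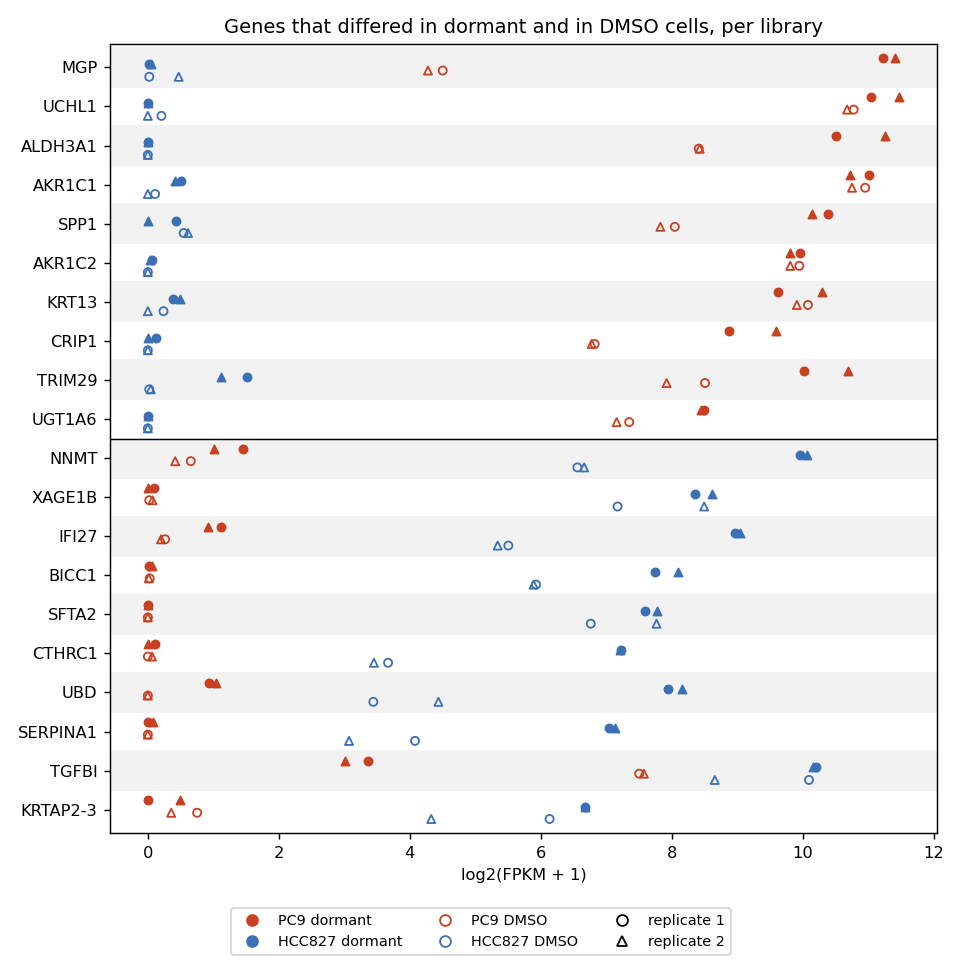
The level of 20 shared genes in each library, as log2(FPKM + 1), 10 higher in PC9 above the line and 10 lower below it. PC9 is red and HCC827 blue, filled symbols are dormant and open ones DMSO. For all 20 genes the PC9 and HCC827 symbols do not overlap in either state.

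At the HCC827 end of the shared genes stood genes of lung lineage, of interferon response and of EGFR itself. EGFR had 6.12 and 3.58 FPKM in dormant PC9, against 97.7 and 67.4 FPKM in dormant HCC827, a difference of -3.85 ± 0.36 (SE, adjusted p = 0.00013), and 10.6 and 10.3 FPKM in DMSO PC9, against 80.9 and 83.8 FPKM in DMSO HCC827. Of 10 tested neighbours of EGFR on chromosome 7, 7 were lower and 0 higher in dormant PC9, all 7 shared, and 10 were lower with 9 of them shared without the second DMSO HCC827 library. SEC61G, a subunit of the channel through which proteins enter the endoplasmic reticulum, had 365 and 408 FPKM in dormant PC9, against 8121 and 10174 FPKM in dormant HCC827. VOPP1, first described as a gene co-expressed with EGFR, had 22.1 and 20.6 FPKM in dormant PC9, against 1496 and 1459 FPKM in dormant HCC827. LANCL2 had 10.9 and 10.6 FPKM in dormant PC9, against 148 and 162 FPKM in dormant HCC827. CDK4, the kinase that drives cells out of G1 with D cyclins, had 70.2 and 74.6 FPKM in dormant PC9, against 5918 and 6404 FPKM in dormant HCC827. It had 125 and 115 FPKM in DMSO PC9, against 6698 and 627 FPKM in DMSO HCC827. The second DMSO HCC827 library was far below the first and still above both PC9 libraries.

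SFTA2, a surfactant-associated secreted protein, had 0 and 0 FPKM in dormant PC9, against 192 and 219 FPKM in dormant HCC827. It was listed at 0 in the DMSO PC9 libraries as well. NKX2-1, the transcription factor of lung and thyroid identity, had 0 and 0 FPKM in dormant PC9, against 1.34 and 1.92 FPKM in dormant HCC827. NAPSA, the protease that matures surfactant protein B, had 0.225 and 0.165 FPKM in dormant PC9, against 36.6 and 35.3 FPKM in dormant HCC827. Of 26 alveolar and airway genes in the deposited values only 9 were tested, and of these 7 were lower and 0 higher in dormant PC9. NKX2-1 and NAPSA passed the filter through HCC827 libraries alone. A count of such members favours HCC827 by selection and is no measure of the lineage as a whole. NNMT, which methylates nicotinamide, had 1.73 and 1.02 FPKM in dormant PC9, against 989 and 1071 FPKM in dormant HCC827. In DMSO, NNMT had 0.575 and 0.335 FPKM in PC9, against 93.3 and 100.2 FPKM in HCC827. The dormant difference was -8.78 ± 0.32 (SE, adjusted p = 1.76e-06). BICC1, an RNA-binding protein of tubular epithelia, had 0.015 and 0.04 FPKM in dormant PC9, against 214 and 272 FPKM in dormant HCC827. CTHRC1, a secreted matrix glycoprotein, had 0.075 and 0 FPKM in dormant PC9, against 148 and 147 FPKM in dormant HCC827. In DMSO, CTHRC1 had 0 and 0.045 FPKM in PC9, against 11.7 and 9.94 FPKM in HCC827. SERPINA1, the inhibitor of neutrophil elastase, had 0 and 0.06 FPKM in dormant PC9, against 131 and 139.8 FPKM in dormant HCC827. In DMSO, SERPINA1 had 0 and 0 FPKM in PC9, against 15.9 and 7.41 FPKM in HCC827. TGFBI, a matrix protein induced by TGF-beta, had 9.23 and 7.01 FPKM in dormant PC9, against 1172 and 1137 FPKM in dormant HCC827. In DMSO, TGFBI had 180.3 and 189.5 FPKM in PC9, against 1093 and 403 FPKM in HCC827. KRTAP2-3, a keratin-associated protein of hair, had 0 and 0.4 FPKM in dormant PC9, against 101 and 101 FPKM in dormant HCC827. For CTHRC1, SERPINA1 and TGFBI the gap was wider in dormant cells, with differences of the differences of -3.63, -3.47 and -5.16 (adjusted p = 0.00204, 0.00761 and 0.00499).

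Cancer-testis genes, silent in most adult tissues, were split between the lines. Of 14 tested members, 8 were higher and 5 lower in dormant PC9, and 10 were shared. MAGEA3 had 183 and 183 FPKM in dormant PC9, against 0.115 and 0.41 FPKM in dormant HCC827, and MAGEA6, a near-identical copy, 205 and 210.2 FPKM in dormant PC9, against 0.08 and 0 FPKM in dormant HCC827. XAGE1B, which has near-identical copies too, had 0.065 and 0 FPKM in dormant PC9, against 325 and 390.1 FPKM in dormant HCC827, and CT83 had 0.06 and 0 FPKM in dormant PC9, against 34.7 and 54.4 FPKM in dormant HCC827. Each line thus held some of these genes at a level where the other was below 1 FPKM.

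Interferon-stimulated genes were lower in PC9, and some of them in dormant cells only. Type I interferons signal from their receptor to transcription factors that bind interferon-stimulated response elements near such genes. Of 34 tested genes of the list, 26 were lower and 1 higher in dormant PC9, with a median of -1.77, and 16 lower and 1 higher in DMSO, with a median of -0.78. The difference of the 2 differences was negative in 8 and positive in 0, and 16 were shared and 5 dormant-only. With the second DMSO HCC827 library left out the numbers of shared and dormant-only members were 16 and 5 as well. IFI27, a mitochondrial protein that interferon induces, had 1.17 and 0.89 FPKM in dormant PC9, against 498 and 525 FPKM in dormant HCC827. In DMSO, IFI27 had 0.2 and 0.15 FPKM in PC9, against 44.4 and 39.5 FPKM in HCC827. BST2, which tethers budding viruses to the cell, had 0.415 and 0.93 FPKM in dormant PC9, against 41.7 and 33.5 FPKM in dormant HCC827. In DMSO, BST2 had 0.565 and 0.34 FPKM in PC9, against 9.37 and 7.29 FPKM in HCC827. EPSTI1 had 0.73 and 0.56 FPKM in dormant PC9, against 21.2 and 17.9 FPKM in dormant HCC827. In DMSO, EPSTI1 had 0.97 and 0.63 FPKM in PC9, against 1.86 and 0.735 FPKM in HCC827, so the lines overlapped in DMSO. UBD, a ubiquitin-like protein that interferon gamma and TNF induce, had 0.915 and 1.05 FPKM in dormant PC9, against 246 and 284 FPKM in dormant HCC827. In DMSO, UBD had 0 and 0 FPKM in PC9, against 9.88 and 20.6 FPKM in HCC827.

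Cytokines and chemokines were also mostly lower in dormant PC9. Of 22 tested cytokines and chemokines, 14 were lower and 1 higher in dormant PC9, against 10 and 0 in DMSO. Of these members 7 were shared and 6 were dormant-only. The genes given next are not among the shared ones. CXCL10, which draws T cells through CXCR3, had 0.535 and 0.115 FPKM in dormant PC9, against 22.8 and 23.9 FPKM in dormant HCC827. In DMSO, CXCL10 had 0 and 0 FPKM in PC9, against 0 and 0.04 FPKM in HCC827. Its dormant difference was -4.22 ± 0.22 (SE, adjusted p = 9.09e-06) and its DMSO difference -0.03. CXCL11, a ligand of the same receptor, had 0 and 0.03 FPKM in dormant PC9, against 8.04 and 5.93 FPKM in dormant HCC827. CCL2, which draws monocytes, had 0 and 0.09 FPKM in dormant PC9, against 119 and 105 FPKM in dormant HCC827. In DMSO, CCL2 had 0 and 0 FPKM in PC9, against 0.395 and 2.19 FPKM in HCC827. CCL2 was not called in DMSO and lay just past 1 log2 unit there (-1.08), which kept it out of the dormant-only class, and without the second DMSO HCC827 library it was in it.

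Start windows of 3 of these genes are shown because they were lower in PC9 together and hold letters like an interferon response element. The letters searched were GAAANNGAAA on both strands, where N is any base, and capitals mark each match. The windows are from RefSeq (GRCh38.p14), CXCL10 at chr4:76023448-76023747 on the minus strand, IFI27 at chr14:94110486-94110785 on the plus strand and BST2 at chr19:17405581-17405880 on the minus strand.
CXCL10: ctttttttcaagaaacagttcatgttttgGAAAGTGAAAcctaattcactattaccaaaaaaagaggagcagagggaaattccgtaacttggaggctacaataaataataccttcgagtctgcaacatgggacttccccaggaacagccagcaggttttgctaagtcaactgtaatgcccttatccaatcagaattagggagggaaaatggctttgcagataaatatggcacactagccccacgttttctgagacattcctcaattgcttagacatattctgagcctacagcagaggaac
IFI27: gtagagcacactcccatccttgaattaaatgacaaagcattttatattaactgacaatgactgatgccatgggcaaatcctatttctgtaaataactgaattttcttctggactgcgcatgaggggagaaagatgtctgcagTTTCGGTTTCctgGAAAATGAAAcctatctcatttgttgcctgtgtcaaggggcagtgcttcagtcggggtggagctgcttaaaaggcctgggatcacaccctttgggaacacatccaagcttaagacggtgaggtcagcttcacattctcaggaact
BST2: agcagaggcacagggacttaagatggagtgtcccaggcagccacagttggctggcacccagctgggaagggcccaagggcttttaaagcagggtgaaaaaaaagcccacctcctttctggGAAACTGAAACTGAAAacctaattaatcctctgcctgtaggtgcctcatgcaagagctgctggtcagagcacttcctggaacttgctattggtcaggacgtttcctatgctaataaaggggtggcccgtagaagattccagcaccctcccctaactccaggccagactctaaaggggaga
Of the 32 interferon-stimulated genes that had a window 22 held a match (68.8%), against 4.38% of all 27305 genes in the RefSeq table, where some genes have several windows and 1 match in any of them counts. Of the 25 cytokine and chemokine genes with a window, the list that holds CXCL10, 3 held a match (12%). The 2 matches in BST2 overlap each other. UBD and CXCL11 had no match in their windows. A match describes the letters and is not a mapped binding site.

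Dormant-only genes higher in HCC827 were led by a pair of histone genes and by vimentin. HIST3H2A, a histone H2A gene, had 22.4 and 24.8 FPKM in dormant PC9, against 1672 and 1578 FPKM in dormant HCC827. In DMSO, HIST3H2A had 1.74 and 1.79 FPKM in PC9, against 6.08 and 1.95 FPKM in HCC827. HIST3H2BB, the H2B gene beside it, had 0.43 and 0.21 FPKM in dormant PC9, against 65.6 and 57.4 FPKM in dormant HCC827. In DMSO, HIST3H2BB had 0 and 0 FPKM in PC9, against 0.42 and 0.215 FPKM in HCC827. Their dormant differences were -6.05 ± 0.43 (SE, adjusted p = 3.29e-05) and -5.57 ± 0.24 (SE, adjusted p = 3.76e-06). The replicates were close and the lines far apart in dormant cells, whereas in DMSO no library of either gene passed 10 FPKM. Most histone mRNA ends without a poly(A) tail and would be lost from a library of poly(A) RNA, so these values need not follow total histone mRNA. RefSeq places both genes on opposite strands with start windows that overlap by 271 bases, and the HIST3H2A window, chr1:228457824-228458123 on the minus strand in GRCh38.p14, is shown because both genes start in it. Capitals mark CCAAT on either strand, which occurs 3 times, as it does at least 3 times in 3.26% of all windows.
HIST3H2A: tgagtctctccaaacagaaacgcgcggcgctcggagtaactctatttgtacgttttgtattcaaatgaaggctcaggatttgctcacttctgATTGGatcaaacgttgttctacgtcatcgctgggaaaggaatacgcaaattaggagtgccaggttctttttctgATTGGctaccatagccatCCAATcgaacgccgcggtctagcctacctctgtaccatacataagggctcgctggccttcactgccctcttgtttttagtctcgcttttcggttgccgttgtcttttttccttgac

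VIM, vimentin, the filament protein of mesenchymal cells, had 2.04 and 2.48 FPKM in dormant PC9, against 205 and 212 FPKM in dormant HCC827. In DMSO, VIM had 11.7 and 10.8 FPKM in PC9, against 25.9 and 7.23 FPKM in HCC827. The dormant difference was -6.01 ± 0.51 (SE, adjusted p = 8.3e-05) and the DMSO difference -0.28. SNAI2, a repressor of epithelial genes, had 1.35 and 1.06 FPKM in dormant PC9, against 30.7 and 30.2 FPKM in dormant HCC827. In DMSO, SNAI2 had 1.76 and 1.81 FPKM in PC9, against 5.64 and 1.5 FPKM in HCC827. Both were high in the dormant HCC827 libraries alone. CDH1, E-cadherin, whose loss usually marks mesenchymal change, was also lower in dormant PC9, with 23.3 and 21.7 FPKM in dormant PC9, against 169.8 and 179 FPKM in dormant HCC827. Unlike VIM and SNAI2, CDH1 was shared, with 6.68 and 5.22 FPKM in DMSO PC9, against 85.5 and 41.8 FPKM in DMSO HCC827. Of 10 tested mesenchymal and EMT genes, 5 were higher and 3 lower in dormant PC9, so the list did not go one way. SPARC, a matrix protein of that list, had 58.4 and 55.7 FPKM in dormant PC9, against 1.11 and 2.62 FPKM in dormant HCC827. SPARC was shared as well, with 15.2 and 14.2 FPKM in DMSO PC9, against 0.045 and 0.29 FPKM in DMSO HCC827. Once the second DMSO HCC827 library was dropped VIM, SNAI2 and HIST3H2A were shared, with DMSO differences of -1.14, -1.25 and -1.36, and the difference of the differences stayed called at -4.87, -2.58 and -4.69. For these genes the gap was thus wider in dormant cells with or without that library, while the lack of a call in DMSO rested on it.

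Several genes of basement membrane and cell adhesion were lower in dormant PC9. COL4A1 and COL4A2 encode collagen chains of basement membrane and lie head to head. COL4A1 had 0.1 and 0.15 FPKM in dormant PC9, against 13 and 11.9 FPKM in dormant HCC827. In DMSO, COL4A1 had 0.295 and 0.325 FPKM in PC9, against 0.355 and 0.18 FPKM in HCC827. COL4A2 had 0.45 and 0.04 FPKM in dormant PC9, against 37.8 and 13.2 FPKM in dormant HCC827, and its dormant HCC827 replicates differed from each other but lay far above PC9. Of 19 tested laminins and integrins, 7 were lower and 0 higher in dormant PC9, against 1 and 4 in DMSO. Without the second DMSO HCC827 library, 12 were lower and 1 higher in dormant PC9, against 5 and 4 in DMSO. ITGB1, the beta chain shared by most collagen and laminin receptors, had 73.8 and 43.8 FPKM in dormant PC9, against 660.3 and 549 FPKM in dormant HCC827. In DMSO, ITGB1 had 96.9 and 86.2 FPKM in PC9, against 201 and 145 FPKM in HCC827. MMP7 and MMP13, proteases of the matrix, were dormant-only. MMP7 had 0 and 0.03 FPKM in dormant PC9, against 16.1 and 17 FPKM in dormant HCC827. MMP13 had 0.045 and 0 FPKM in dormant PC9, against 16.6 and 15.8 FPKM in dormant HCC827. Every DMSO library of either gene was below 1 FPKM. In the same class was GLIPR2, with 0.76 and 0.85 FPKM in dormant PC9, against 49.5 and 43.9 FPKM in dormant HCC827. The LIM protein LMCD1 had 0.905 and 0.72 FPKM in dormant PC9, against 32.6 and 30.8 FPKM in dormant HCC827, and MAGED4, a MAGE family gene with a near-identical copy, 0 and 0 FPKM in dormant PC9, against 17.5 and 16.4 FPKM in dormant HCC827. The replicates of each line lay close together in these genes. BAAT, which couples bile acids to glycine or taurine in liver, had 0 and 0 FPKM in dormant PC9, against 19.8 and 20.2 FPKM in dormant HCC827. HBEGF, a ligand of EGFR and ERBB4, had 0.51 and 0.73 FPKM in dormant PC9, against 25.3 and 24.2 FPKM in dormant HCC827. In DMSO, HBEGF had 2.61 and 3.12 FPKM in PC9, against 2.8 and 1.79 FPKM in HCC827. Without the second DMSO HCC827 library ITGB1 and LMCD1 were shared, with DMSO differences of -1.13 and -0.73, MAGED4 was shared too at -1.86, and COL4A2 was past 1 log2 unit at -1.43, while COL4A1, MMP7, MMP13, GLIPR2, BAAT and HBEGF kept their class.

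Targets of YAP and TEAD were split, with more of them lower in dormant PC9. Of 23 tested targets, 13 were lower and 5 higher in dormant PC9 (median -1.02), against 3 and 4 in DMSO (median 0.09). CYR61, a matricellular protein, was shared, with 19 and 21.3 FPKM in dormant PC9, against 385 and 355 FPKM in dormant HCC827. In DMSO, CYR61 had 6.01 and 8.16 FPKM in PC9, against 138 and 106 FPKM in HCC827. ANKRD1, a stress-induced cofactor of muscle, was dormant-only, with 0.85 and 0.405 FPKM in dormant PC9, against 19.5 and 16.7 FPKM in dormant HCC827. In DMSO, ANKRD1 had 0.28 and 0.305 FPKM in PC9, against 0.34 and 0.295 FPKM in HCC827. CTGF, a relative of CYR61, had 1.69 and 1.71 FPKM in dormant PC9, against 4.97 and 5.76 FPKM in dormant HCC827. It was dormant-only, and its DMSO difference of 0.58 had the opposite sign and was not called. DMSO PC9 held 0.74 and 0.78 FPKM of CTGF, against 0.18 and 0.18 FPKM in DMSO HCC827. TGFB2, a TGF-beta ligand, had 5.42 and 4.8 FPKM in dormant PC9, against 54.4 and 44.1 FPKM in dormant HCC827. These genes were lower in both dormant PC9 libraries than in either dormant HCC827 library. AXL, a receptor tyrosine kinase tied to drug tolerance, went the other way, with 12.1 and 21.8 FPKM in dormant PC9, against 1.06 and 1.55 FPKM in dormant HCC827. In DMSO, AXL had 67.4 and 49.2 FPKM in PC9, against 2.27 and 1.07 FPKM in HCC827. YAP1 itself had 1.18 and 0.33 FPKM in dormant PC9, against 1.47 and 1.2 FPKM in dormant HCC827, a difference of -0.45 ± 0.33 (SE, adjusted p = 0.323), and its paralog WWTR1 (TAZ) had 7.03 and 3.48 FPKM in dormant PC9, against 31.8 and 18 FPKM in dormant HCC827, a difference of -2.06 ± 0.40 (SE, adjusted p = 0.0057). With median of ratios scaling 10 targets were lower and 5 higher. With the second DMSO HCC827 library left out TGFB2 was shared, with a DMSO difference of -0.77, and 7 targets were dormant-only, against 4 with it.

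**Figure D3:**
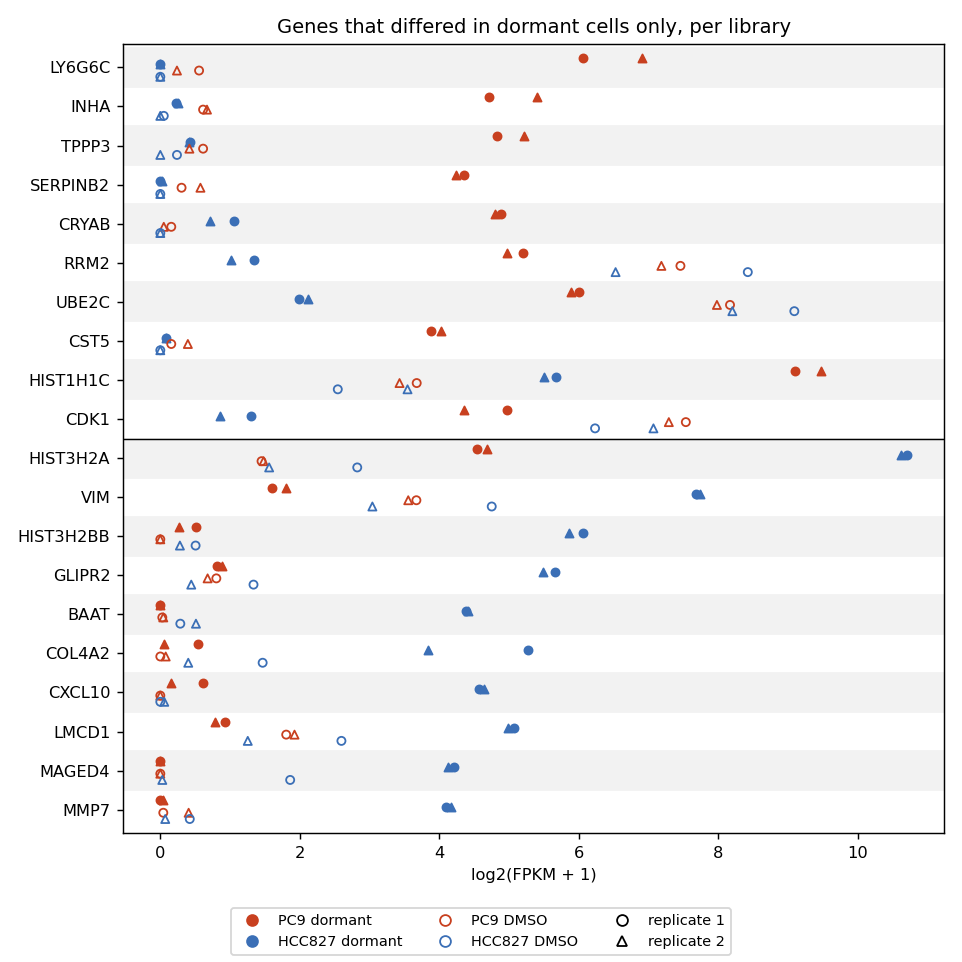
The level of 20 dormant-only genes in each library, as log2(FPKM + 1), 10 higher in dormant PC9 above the line and 10 lower below it, with colours and fill as in the plot of shared genes. Filled symbols of the 2 lines lie apart for each gene, while open DMSO symbols lie nearer to each other, with the 2 DMSO HCC827 symbols apart for RRM2, VIM and MAGED4.

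Genes of mitosis were higher in dormant PC9. They encode cyclins, kinases and spindle proteins that are made as cells divide. Of 25 tested genes, 17 were higher and 0 lower in dormant PC9, with a median of 1.82, against 3 higher and 3 lower in DMSO, with a median of 0.18. UBE2C, which marks mitotic cyclins for destruction, had 62.9 and 58.4 FPKM in dormant PC9, against 2.98 and 3.35 FPKM in dormant HCC827. In DMSO, UBE2C had 287 and 252 FPKM in PC9, against 544 and 294 FPKM in HCC827. PLK1, a kinase of mitotic entry, had 19.9 and 23.2 FPKM in dormant PC9, against 0.4 and 0.89 FPKM in dormant HCC827. In DMSO, PLK1 had 152 and 129 FPKM in PC9, against 35.5 and 2.43 FPKM in HCC827. KIF20A, a kinesin of cell cleavage, had 9.49 and 9.13 FPKM in dormant PC9, against 0.23 and 0.13 FPKM in dormant HCC827. In DMSO, KIF20A had 32.8 and 28.7 FPKM in PC9, against 17.8 and 12.9 FPKM in HCC827. In all 3 genes the dormant PC9 libraries lay below those of DMSO PC9 and the dormant HCC827 libraries lay lower still. MKI67, the gene of the Ki-67 antigen, had 1.47 and 0.99 FPKM in dormant PC9, against 0.03 and 0.015 FPKM in dormant HCC827. In DMSO, MKI67 had 5.92 and 4.37 FPKM in PC9, against 6.17 and 5.12 FPKM in HCC827. More dividing cells and more such RNA per cell cannot be told apart in bulk RNA.

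CDK1, the kinase that starts mitosis, had 30.4 and 19.4 FPKM in dormant PC9, against 1.47 and 0.81 FPKM in dormant HCC827. In DMSO, CDK1 had 185 and 156 FPKM in PC9, against 74.3 and 133 FPKM in HCC827. RRM2, the S-phase subunit of ribonucleotide reductase, had 35.8 and 30.4 FPKM in dormant PC9, against 1.52 and 1.02 FPKM in dormant HCC827. In DMSO, RRM2 had 175 and 144 FPKM in PC9, against 342 and 91.3 FPKM in HCC827. BIRC5, survivin, of the chromosomal passenger complex, was higher in dormant PC9 by 3.25 ± 0.40 (SE, adjusted p = 0.00054). Of 26 tested S phase and replication genes, 7 were higher and 2 lower in dormant PC9, and 14 and 3 without the second DMSO HCC827 library. The difference of the 2 differences was positive in 6 mitosis genes and negative in 0, and in 20 and 0 without the second DMSO HCC827 library. Without it, 4 mitosis genes were higher and 7 lower in DMSO PC9. UBE2C and RRM2 were then lower in DMSO PC9 by more than 1 log2 unit each and counted as reversed, and CDK1 was higher by 1.18 and counted as shared. CDKN1A, the inhibitor p21, had 3.61 and 2.24 FPKM in dormant PC9, against 3.85 and 2.35 FPKM in dormant HCC827, and CCND1, cyclin D1, 5.54 and 5.93 FPKM in dormant PC9, against 1.49 and 1.38 FPKM in dormant HCC827. Neither was called between dormant lines. Once the second DMSO HCC827 library was dropped CCND1 was called there (adjusted p = 0.00124) and counted as dormant-only, as was MKI67.

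**Figure D4:**
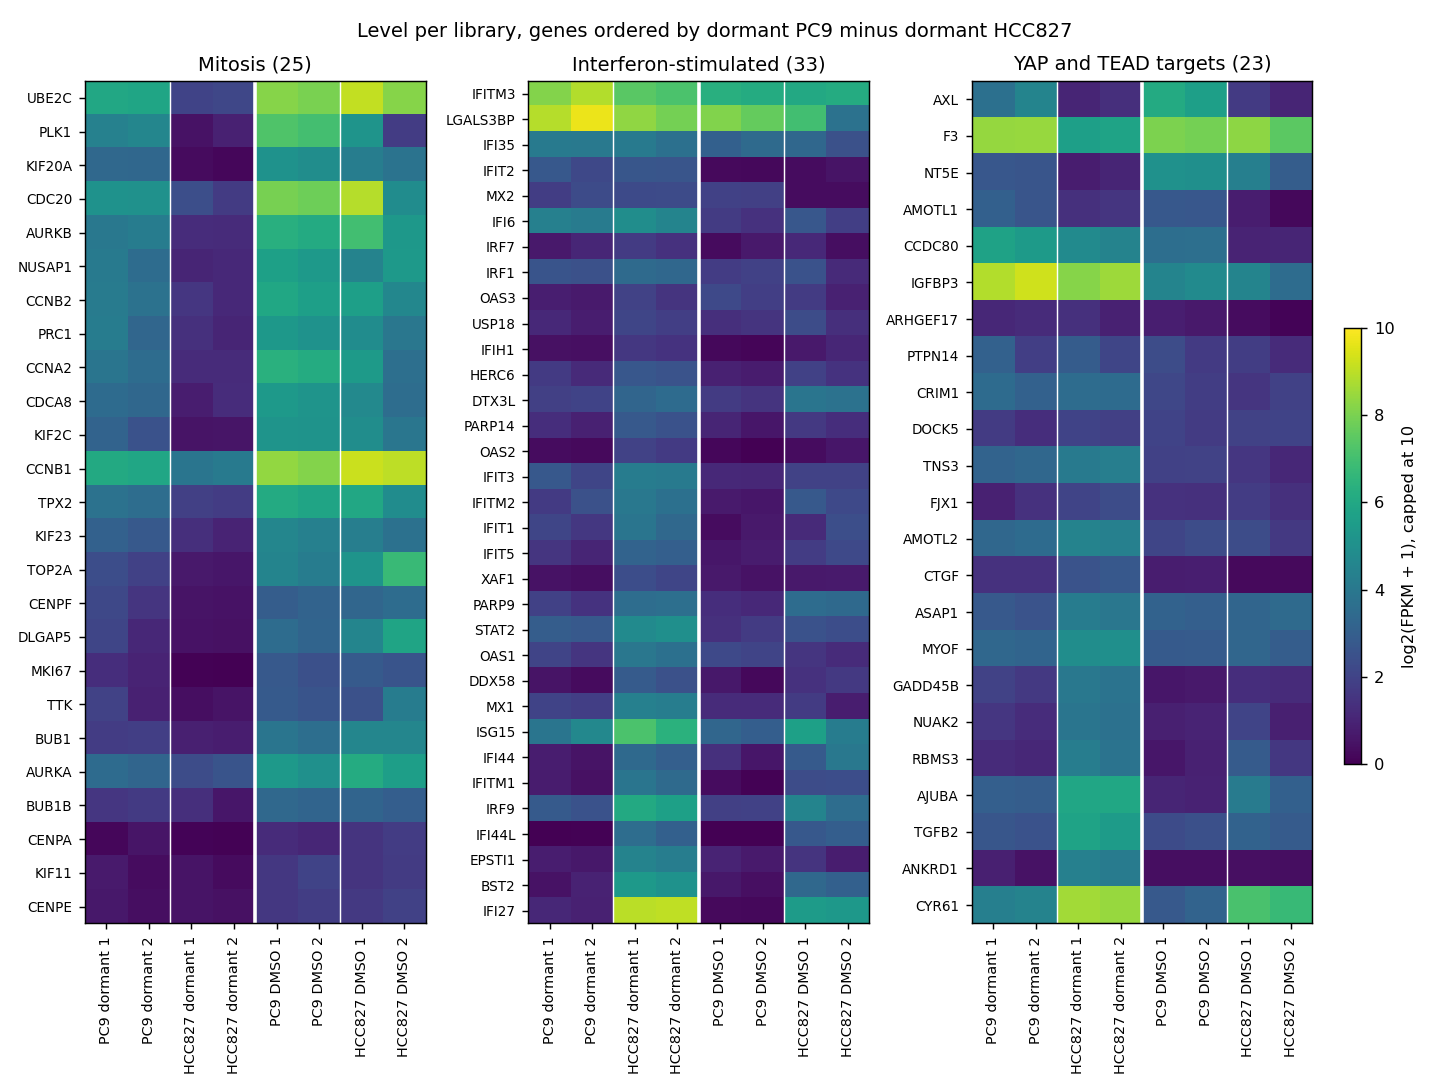
Level of 25 mitosis, 33 of the 34 interferon-stimulated and 23 YAP and TEAD target genes in the 8 libraries, with colour giving log2(FPKM + 1), dark for low and yellow for high and capped at 10, and genes ordered from higher to lower in dormant PC9. Mitosis genes from UBE2C down to KIF23 are darker in dormant HCC827 than in dormant PC9, and the lower rows of the interferon panel, such as IFI27 and BST2, are brighter in dormant HCC827.

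Most other dormant-only genes named here as higher in PC9 were near 0 in every DMSO library. LY6G6C, a small lipid-anchored surface protein, had 65.6 and 119 FPKM in dormant PC9, against 0 and 0 FPKM in dormant HCC827. In DMSO, LY6G6C had 0.47 and 0.18 FPKM in PC9, against 0 and 0 FPKM in HCC827. INHA, the alpha chain of inhibin, had 25.3 and 41.4 FPKM in dormant PC9, against 0.165 and 0.195 FPKM in dormant HCC827. TPPP3, a tubulin-binding protein of ciliated cells, had 27.4 and 36.3 FPKM in dormant PC9, against 0.34 and 0.335 FPKM in dormant HCC827. SERPINB2, the plasminogen activator inhibitor PAI-2, had 19.4 and 17.9 FPKM in dormant PC9, against 0 and 0.02 FPKM in dormant HCC827. CRYAB, a small heat shock protein, had 28.5 and 26.9 FPKM in dormant PC9, against 1.07 and 0.64 FPKM in dormant HCC827, and CST5, a cystatin, 13.8 and 15.2 FPKM in dormant PC9, against 0.06 and 0.06 FPKM in dormant HCC827. Their dormant differences ran from 3.87 to 6.48, and in DMSO no library of these 6 genes passed 1 FPKM. INHA had 0.53 and 0.59 FPKM in DMSO PC9, against 0.035 and 0 FPKM in DMSO HCC827. LY6G6C, INHA, TPPP3, SERPINB2 and CST5 left the dormant-only class with a pseudocount of 0.1, and CRYAB kept it. In the fit over all 12 libraries INHA, CRYAB and CST5 left it. HIST1H1C, a linker histone, had 548 and 713 FPKM in dormant PC9, against 50 and 44.3 FPKM in dormant HCC827. In DMSO, HIST1H1C had 11.8 and 9.78 FPKM in PC9, against 4.83 and 10.7 FPKM in HCC827. Without the second DMSO HCC827 library HIST1H1C was shared, at a DMSO difference of 1.01. Of 6 tested pregnancy-specific glycoproteins, 4 were higher and 1 lower in dormant PC9, against 0 and 0 in DMSO. These proteins, which the placenta secretes, had RNA below 1 FPKM in all DMSO libraries for PSG1, PSG3, PSG4 and PSG5. PSG1 had 37.3 and 28.9 FPKM in dormant PC9, against 3.66 and 2.2 FPKM in dormant HCC827, while PSG3 went the other way with 0.74 and 0.745 FPKM in dormant PC9, against 3.4 and 3.81 FPKM in dormant HCC827. These genes are near copies of each other, so their single values are uncertain.

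Few genes changed sides. THBS1, thrombospondin, a matrix glycoprotein that activates TGF-beta, had 89.6 and 36.1 FPKM in dormant PC9, against 578 and 184 FPKM in dormant HCC827. It had 229 and 242 FPKM in DMSO PC9, against 13 and 3.6 FPKM in DMSO HCC827, and the difference of the differences was -7.38 (adjusted p = 0.00581). CEACAM6, an adhesion protein of epithelia, had 0.14 and 0.13 FPKM in dormant PC9, against 39.6 and 34.6 FPKM in dormant HCC827. In DMSO, CEACAM6 had 13.8 and 12.4 FPKM in PC9, against 7.93 and 5.38 FPKM in HCC827. MDK, the growth factor midkine, had 23.2 and 44.7 FPKM in dormant PC9, against 534 and 386 FPKM in dormant HCC827. In DMSO, MDK had 56.4 and 59.2 FPKM in PC9, against 21.9 and 18.5 FPKM in HCC827. PMEPA1, which dampens TGF-beta signalling, had 3.79 and 4.35 FPKM in dormant PC9, against 16 and 18.6 FPKM in dormant HCC827. In DMSO, PMEPA1 had 24.9 and 23.9 FPKM in PC9, against 3.06 and 1.88 FPKM in HCC827. These 4 genes were lower in dormant PC9 and higher in DMSO PC9, and the replicates of the 2 lines did not overlap in either state. STEAP3, a ferric reductase, GNG4, a G protein subunit, and CGB8, one of several copies of the chorionic gonadotropin beta gene, had the same pattern with differences of -2.54, -1.95 and -2.17 in dormant cells. FGFBP1, a carrier of fibroblast growth factors, was reversed the other way, with 3.28 and 3.52 FPKM in dormant PC9, against 0.08 and 0.15 FPKM in dormant HCC827. In DMSO, FGFBP1 had 1.09 and 1.13 FPKM in PC9, against 6.67 and 12.5 FPKM in HCC827. CEACAM6 was dormant-only without the second DMSO HCC827 library, at a DMSO difference of 0.66.

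A small set of genes was called between the lines in DMSO and not in dormant cells. TGM2, tissue transglutaminase, had 0.81 and 0.215 FPKM in dormant PC9, against 1.25 and 0.845 FPKM in dormant HCC827. In DMSO, TGM2 had 155 and 149 FPKM in PC9, against 3.04 and 1.3 FPKM in HCC827. KRT6B, a keratin with a close copy in KRT6A, had 0.285 and 0.6 FPKM in dormant PC9, against 0 and 0.075 FPKM in dormant HCC827. In DMSO, KRT6B had 14.6 and 12 FPKM in PC9, against 0.07 and 0 FPKM in HCC827. MYEOV had 0.33 and 0.47 FPKM in dormant PC9, against 0 and 0 FPKM in dormant HCC827. In DMSO, MYEOV had 31.3 and 27.4 FPKM in PC9, against 1.97 and 1.44 FPKM in HCC827. The mitochondrial gene MT-ND5 had 846 and 486 FPKM in dormant PC9, against 1052 and 552 FPKM in dormant HCC827. In DMSO, MT-ND5 had 2435 and 2427 FPKM in PC9, against 213 and 228 FPKM in HCC827, with replicates that differed in both dormant groups. On the other side, CSF2, the cytokine GM-CSF, had 0 and 0 FPKM in dormant PC9, against 0.265 and 0.29 FPKM in dormant HCC827. In DMSO, CSF2 had 0 and 0 FPKM in PC9, against 7.29 and 5.8 FPKM in HCC827. BCL2L15 had 0.02 and 0.025 FPKM in dormant PC9, against 0.115 and 0.295 FPKM in dormant HCC827. In DMSO, BCL2L15 had 0.125 and 0.015 FPKM in PC9, against 7.94 and 9.67 FPKM in HCC827, and SLC39A11, a zinc transporter, 28.7 and 49 FPKM in dormant PC9, against 35.3 and 46.7 FPKM in dormant HCC827. In DMSO, SLC39A11 had 6.24 and 6.24 FPKM in PC9, against 50.5 and 62.9 FPKM in HCC827. CATSPERZ and TMEM120B were also lower in DMSO PC9 only, by 2.51 and 2.51 log2 units. MLPH, a linker of melanosomes to myosin, was higher in DMSO PC9 by 3.29, and was shared without the second DMSO HCC827 library.

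Genes that decide cell death were mostly lower in PC9 where they were called with values as deposited. Of 9 tested anti-apoptotic BCL2 and IAP genes, 6 were lower and 1 higher in dormant PC9, against 1 lower and 1 higher with median of ratios scaling. MCL1, a short-lived guardian of mitochondria, had 3.37 and 2.29 FPKM in dormant PC9, against 8.76 and 8.69 FPKM in dormant HCC827, and BIRC3, an inhibitor of apoptosis that NF-kappaB induces, 3.32 and 1.88 FPKM in dormant PC9, against 10.3 and 9.03 FPKM in dormant HCC827. BCL2A1, another BCL2 relative, had 0 and 0.135 FPKM in dormant PC9, against 2.98 and 2.86 FPKM in dormant HCC827. In DMSO, BCL2A1 had 0 and 0 FPKM in PC9, against 14.9 and 50.2 FPKM in HCC827. Of 11 tested pro-apoptotic BCL2 genes, 5 were lower and 1 higher in dormant PC9. BMF, which binds and blocks the guardians, was dormant-only, with 0.175 and 0.175 FPKM in dormant PC9, against 3.29 and 2.46 FPKM in dormant HCC827. In DMSO, BMF had 0 and 0.04 FPKM in PC9, against 0.23 and 0.11 FPKM in HCC827. PMAIP1 (NOXA) had 3.76 and 2.28 FPKM in dormant PC9, against 13 and 14.2 FPKM in dormant HCC827, and BID, which death receptors activate by cleavage, 30.6 and 44 FPKM in dormant PC9, against 5.01 and 4.92 FPKM in dormant HCC827. BCL2L11 (BIM), which ERK marks for destruction, had 3.52 and 2.79 FPKM in dormant PC9, against 5.08 and 3.98 FPKM in dormant HCC827, a difference of -0.41 ± 0.26 (SE, adjusted p = 0.257). MCL1, BIRC3, BCL2A1, PMAIP1 and BID were shared, with DMSO differences of -3.02 for PMAIP1 and 3.95 for BID. BCL2A1 had a narrower gap in dormant cells than in DMSO, and the difference of the differences was 2.96 (adjusted p = 0.0417).

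Of 12 tested ERK-induced genes, 1 was higher and 2 lower in dormant PC9, and 3 and 2 without the second DMSO HCC827 library. IER3, an immediate early gene that ERK induces, was the higher one, with 19.7 and 23.1 FPKM in dormant PC9, against 9.47 and 6.36 FPKM in dormant HCC827, and had 33.9 and 53.4 FPKM in DMSO PC9, against 2.18 and 1.25 FPKM in DMSO HCC827. DUSP6, a phosphatase that ERK induces against itself, was listed at 0 in all 4 dormant libraries and had 3.54 and 3.58 FPKM in DMSO PC9, against 13.1 and 2.99 FPKM in DMSO HCC827. PHLDA1 had 0.025 and 0.01 FPKM in dormant PC9, against 0.48 and 0.72 FPKM in dormant HCC827. In DMSO, PHLDA1 had 1.17 and 1.08 FPKM in PC9, against 15.6 and 14 FPKM in HCC827. ETV5 and FOSL1, transcription factors downstream of ERK, were not called, and FOSL1 was called without the second DMSO HCC827 library (adjusted p = 0.0204). ETV5 had 0.535 and 0.285 FPKM in dormant PC9, against 0.18 and 0.125 FPKM in dormant HCC827. FOSL1 had 1.66 and 2.44 FPKM in dormant PC9, against 0.645 and 0.575 FPKM in dormant HCC827. MYC, a driver of growth, had 9.54 and 11.7 FPKM in dormant PC9, against 55.6 and 44.2 FPKM in dormant HCC827. In DMSO, MYC had 19.3 and 16.5 FPKM in PC9, against 57.9 and 21.1 FPKM in HCC827. Of 13 ERBB receptors, ligands and regulators, 6 were lower and 3 higher in dormant PC9. NRG1, a ligand of ERBB3, had 0.215 and 0.24 FPKM in dormant PC9, against 3.93 and 4 FPKM in dormant HCC827, and ERRFI1, an inhibitor of EGFR, 0.455 and 0.49 FPKM in dormant PC9, against 4.47 and 4.38 FPKM in dormant HCC827. Both NRG1 and ERRFI1 were shared, with DMSO differences of -3.01 and -4.14. ERBB2 had 3.62 and 2.71 FPKM in dormant PC9, against 6.73 and 5.12 FPKM in dormant HCC827, a difference of -0.73 ± 0.25 (SE, adjusted p = 0.0566), and ERBB3 had 12.9 and 10.4 FPKM in dormant PC9, against 10.7 and 12 FPKM in dormant HCC827, a difference of 0.03 ± 0.31 (SE, adjusted p = 0.947).

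All 5 tested metallothioneins were called, 4 lower and 1 higher in dormant PC9, and MT2A, which binds zinc and copper, had 14.2 and 19.5 FPKM in dormant PC9, against 652 and 665 FPKM in dormant HCC827. In DMSO, MT2A had 333 and 299 FPKM in PC9, against 783 and 1249 FPKM in HCC827. Of 16 tested MHC class I and antigen processing genes, 4 were higher and 0 lower, and 11 and 4 without the second DMSO HCC827 library. HLA-G had 62.4 and 85.3 FPKM in dormant PC9, against 11.5 and 7.47 FPKM in dormant HCC827, and HLA genes share sequence. In MHC class II, 2 genes were higher and 4 lower of 7, with CD74, the invariant chain, at 20.6 and 21.4 FPKM in dormant PC9, against 0.215 and 0.16 FPKM in dormant HCC827. Of 19 TGF-beta, BMP and ID genes, 9 were lower and 4 higher, led by ID2, an inhibitor of helix-loop-helix factors, with 0.61 and 0.8 FPKM in dormant PC9, against 45.1 and 46.3 FPKM in dormant HCC827. HOX genes, which set position along the body, were low, and 3 of 4 tested were lower in dormant PC9, among them HOXA10 with 0.105 and 0.25 FPKM in dormant PC9, against 2.37 and 2.76 FPKM in dormant HCC827. MT2A, HLA-G, CD74, ID2 and HOXA10 were shared. The remaining lists are read beside all tested genes, of which 10.9% were higher and 22.2% lower in dormant PC9. Lower members made up 23.8% of p53 targets and 23.8% of other receptor tyrosine kinases, near that share. Of 21 p53 targets 1 was higher and 5 lower, of 27 epithelial junction genes 6 and 4, of 21 Hippo pathway genes 3 and 3, and of 11 ABC transporters 5 and 3. Of 21 other receptor tyrosine kinases 5 were higher and 5 lower, of 12 collagens 2 and 4, of 15 matrix proteases and inhibitors 5 and 6, and of 12 complement genes 4 and 2. Of 9 IGF binding proteins 3 were higher and 0 lower, of 7 mucins and CEACAM genes 2 and 3, of 9 Wnt and Notch genes 2 and 1, and of 11 CDK inhibitors and D cyclins 1 and 3. Without the second DMSO HCC827 library more members were called in each of these remaining lists, as over all genes.

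**Figure D5:**
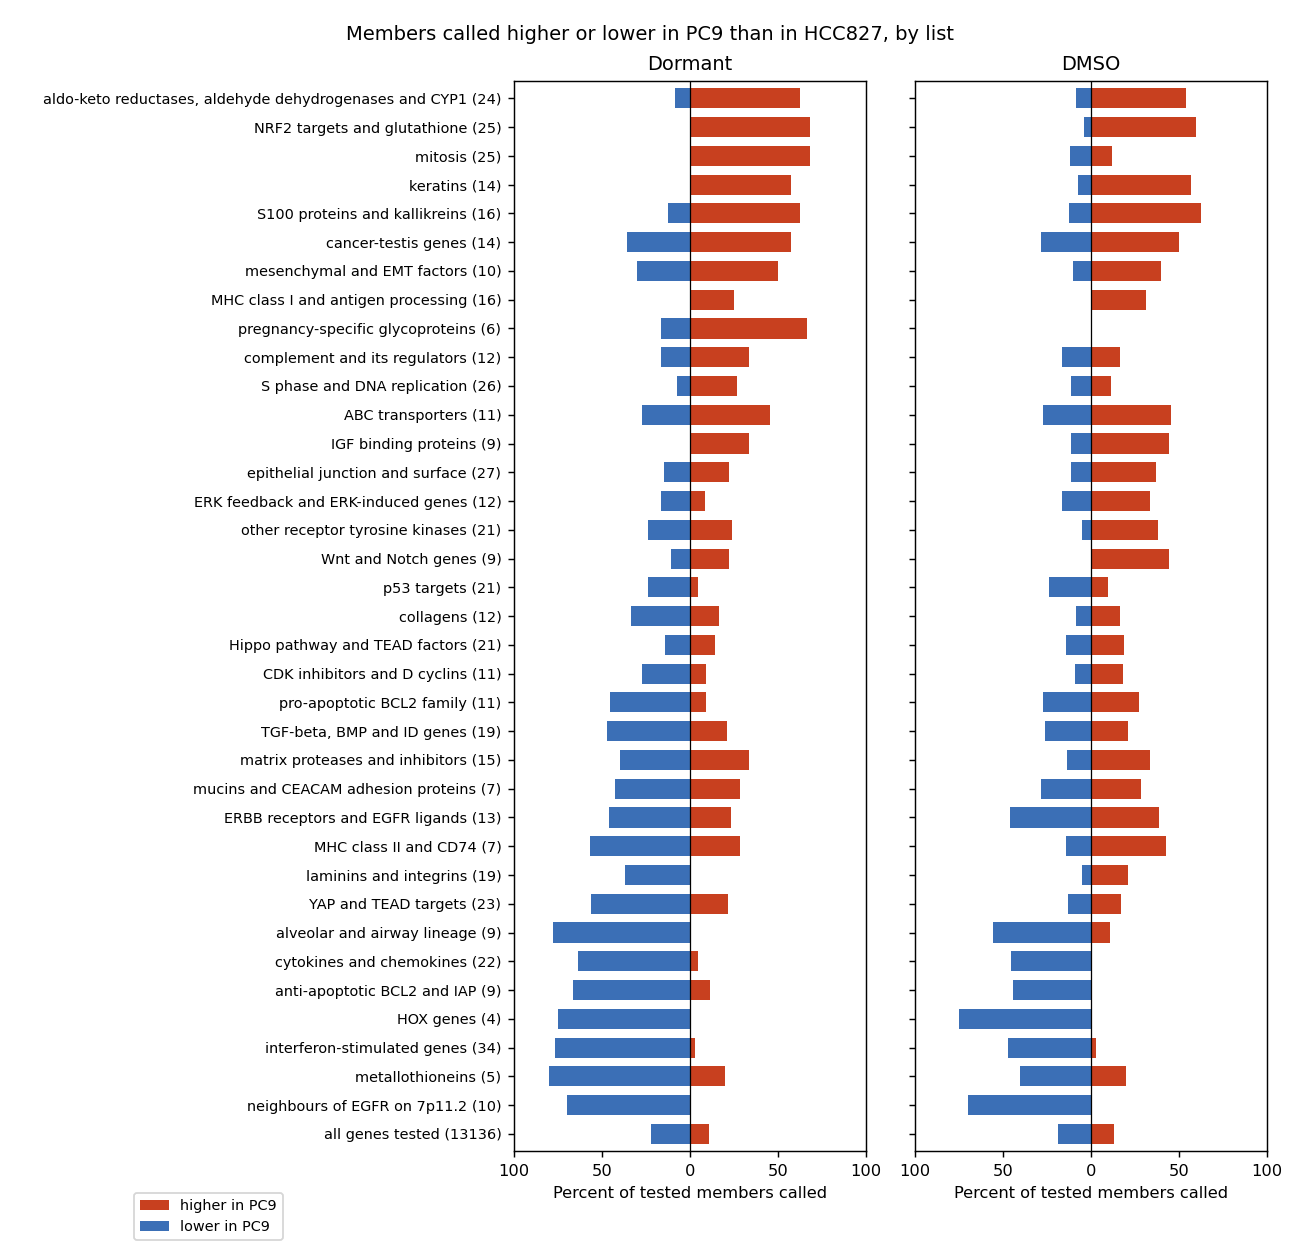
Share of the tested members of each list called higher in PC9 (red, to the right) or lower (blue, to the left), in dormant cells on the left panel and in DMSO on the right, with the number tested in brackets. The lowest bar gives all tested genes, 10.9% higher and 22.2% lower in dormant PC9, against which each list is read.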

How the data were processed

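Total RNA was made into stranded mRNA libraries (TruSeq), per the labels' protocols. The authors deposited FPKM values per gene, 2 columns named R1 and R2 for each library. The submitters' processing notes name STAR 2.5.1b, Cufflinks 2.2.1, DESeq2 1.10.1, hg19 and GRCh37, with no role for each, and whether counting used strand is not given in the sources used here. What R1 and R2 stand for is not stated either. Their lowest correlation was 0.993, and they were averaged and counted as 1 library. The table held 57905 genes, and 27 symbols turned into dates were restored by gene ID from GENCODE release 29. FPKM divides by all mapped RNA, so a few very abundant genes move every other value.

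A linear model with 4 groups of 2 libraries was fitted to log2(FPKM + 1) over 13136 genes with limma 3.58.1 in R 4.3.3 (eBayes with trend, two-sided, 4 residual and 4.36 prior degrees of freedom). The fit was run on simulated data with the same spread of a gene in all groups. That setting lacks the wider spread of DMSO HCC827, so it does not show how the fit deals with it. Tables and figures used Python 3.11.15, pandas 2.3.3, numpy 2.4.6 and matplotlib 3.10.9. Neither the labels nor the table give read counts, so no counting interval can be given. Named genes were, by rule, the 10 largest differences each way among shared and among dormant-only protein-coding genes whose replicates did not overlap, the 8 reversed with the largest difference of differences, the 5 largest DMSO-only each way, up to 4 called genes of each of 36 lists, and 38 single genes. A few genes that met the rule or belong to a list count in the totals and are not reported here by name. The neighbours of CDK4 were added after values were seen. The members and lists were chosen with earlier results of these data known. Alternatives covered scaling, pseudocount, filter, libraries, replicate columns and leaving out each library. Start windows came from RefSeq (GRCh38.p14), where 147 of 202 named genes had one, and no coordinate was carried between builds. The HCC4006 libraries entered only 2 of the alternatives.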

Additional observations from a re-analysis of the deposited data

Results flagged for a closer look

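For each gene below the gap between PC9 and HCC827 differed between dormant cells and DMSO by a test of that difference itself (limma, dormant difference minus DMSO difference, adjusted p under 0.05 over all tested genes). Each value is that difference of differences on log2(FPKM + 1), so a positive one means that PC9 stood relatively higher in dormant cells. With 2 libraries a group no library was tested as an outlier within its group.

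Among genes called the same way in both states the value was positive, at 7.13 for MGP, 3.78 for KLK7, 3.16 for KRT14, 2.96 for BCL2A1, 2.69 for SPP1, 2.46 for ALDH3A1, 2.37 for CRIP1, 2.33 for GSTM3 and 2.25 for ERRFI1. It was 2.25 for PHLDA1 and 2.16 for KIF20A in further genes of that class. Among genes called the same way in both states the value was negative, at -5.16 for TGFBI, -3.63 for CTHRC1, -3.58 for MT2A, -3.47 for SERPINA1, -3.12 for UBD, -2.79 for IFI27, -2.70 for NNMT, -2.68 for IER3 and -1.99 for BICC1. It was -1.91 for ID2 and -1.86 for BST2 in further genes of that class. Among dormant-only genes the value was positive, at 6.09 for LY6G6C, 4.46 for UBE2C, 4.21 for INHA, 4.21 for TPPP3, 4.06 for RRM2, 3.86 for CRYAB, 3.84 for SERPINB2, 3.59 for CST5 and 3.38 for BIRC5. It was 3.19 for HIST1H1C, 3.06 for PSG1 and 2.82 for CDK1 in further genes of that class. Among dormant-only genes the value was negative, at -5.73 for VIM, -5.32 for HIST3H2A, -5.17 for HIST3H2BB, -4.57 for GLIPR2, -4.23 for HBEGF, -4.19 for CXCL10, -4.11 for LMCD1, -4.09 for MMP7 and -4.03 for BAAT. It was -3.63 for COL4A1, -3.54 for ANKRD1, -3.51 for MMP13, -3.36 for COL4A2, -3.33 for EPSTI1, -3.29 for SNAI2, -3.22 for MAGED4, -2.64 for CXCL11 and -2.49 for ITGB1 in further genes of that class. It was -2.40 for TGFB2, -1.81 for CTGF, -1.52 for BMF and -1.38 for PSG3 in further genes of that class. Among genes with opposite signs the value was positive, at 4.25 for FGFBP1. Among genes with opposite signs the value was negative, at -7.38 for THBS1, -5.97 for CEACAM6, -5.25 for MDK, -4.74 for PMEPA1, -4.43 for STEAP3, -4.04 for CGB8 and -3.69 for GNG4. Among DMSO-only genes the value was positive, at 2.96 for BCL2L15, 2.88 for SLC39A11, 2.68 for TMEM120B, 2.56 for CSF2 and 2.43 for CATSPERZ. Among DMSO-only genes the value was negative, at -6.10 for TGM2, -3.71 for MT-ND5, -3.31 for KRT6B, -3.01 for MYEOV and -2.83 for MLPH. Among genes outside these classes the value was negative, at -5.68 for CCL2.

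The classes of some of these genes rest on the second DMSO HCC827 library, which stood apart from the first. Without it VIM, SNAI2, HIST3H2A, HIST1H1C, CDK1, LMCD1, MAGED4, TGFB2 and ITGB1 were called in both states with the same sign, UBE2C and RRM2 with opposite signs, and CEACAM6 in dormant cells only, and the difference of the differences stayed called in all 12.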

How the results depend on the processing

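No named gene that was called in the dormant comparison changed sign there under any setting, while some that were not called did, among them ERBB3, MT-ND5 and CDKN1A. Of the 176 named genes called there, 128 kept the call in every setting and 48 lost it in at least 1. Counts moved more. Leaving out 1 library at a time gave 769 to 2455 genes higher and 1295 to 4770 lower in dormant PC9, 693 to 3790 higher and 690 to 3537 lower in DMSO PC9, and 171 to 4724 genes called in the difference of differences. It gave 978 to 4088 shared, 92 to 1244 dormant-only, 11 to 501 reversed and 28 to 1643 DMSO-only genes. The highest counts came without either DMSO HCC827 library, and a lone library left in a group is assumed to vary like the others. All 4349 dormant calls kept their sign and call without either of them.

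Median of ratios scaling gave 1693 genes lower in dormant PC9, against 2919. A pseudocount of 0.1 gave 295 genes in the difference of differences, 107 dormant-only and 43 DMSO-only. No filter gave 309, with 1437 shared, 165 dormant-only, 16 reversed and 65 DMSO-only genes. A filter at 5 FPKM, with fewer genes tested, gave 827 higher and 1609 lower in dormant PC9, 1025 higher and 1464 lower in DMSO PC9, 366 in the difference of differences, 1506 shared, 137 dormant-only and 59 DMSO-only. A fit over all 12 libraries gave 684 higher and 976 lower in dormant PC9, 654 higher and 664 lower in DMSO PC9, 156 in the difference of differences, 713 shared, 86 dormant-only, 4 reversed and 28 DMSO-only. A fit of the 4 dormant libraries alone gave 2186 higher. Array quality weights gave 2257 higher and 4507 lower in dormant PC9, 994 higher and 1200 lower in DMSO PC9, 444 in the difference of differences, 221 dormant-only and 62 DMSO-only. No trend gave 447, with 202 dormant-only and 76 DMSO-only. For these settings the cause was not tested. A fit of 10 libraries without the second DMSO HCC827 and second dormant HCC4006 libraries, added after seeing the data, gave 2159 higher and 82 reversed. Of the 20 dormant-only genes named by size, 11 kept that class with a pseudocount of 0.1 and 8 in the fit over all 12 libraries. The pseudocount of 0.1 took out LY6G6C, INHA, TPPP3, SERPINB2, CST5, HIST3H2BB, BAAT, COL4A2 and MAGED4.

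Same-numbered libraries did not visibly deviate together, with correlations of -0.281 to 0.125 over group pairs. Such correlations cannot show whether same-numbered samples were handled together. The main fit did not pair samples by number. A fit with the replicate block called 1327 genes higher and 2727 lower in dormant PC9, 1635 higher and 2259 lower in DMSO PC9, and 518 in the difference of differences, with 2104 shared, 254 dormant-only, 37 reversed and 102 DMSO-only genes. The lack of read counts leaves the precision of genes near 1 FPKM unknown.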

Other observations

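A run of genes around CDK4 on chromosome 12 was far lower in PC9, looked at because CDK4 itself was, and so chosen after its values were seen. In the RefSeq order (GRCh38.p14), PIP4K2C, a lipid kinase, had 34.9 and 38.0 FPKM in dormant PC9, against 1445 and 1468 FPKM in dormant HCC827. OS9, which hands misfolded proteins to degradation, had 30.3 and 27.4 FPKM in dormant PC9, against 2437 and 1872 FPKM in dormant HCC827. TSPAN31, the gene next to CDK4, had 16.4 and 16.8 FPKM in dormant PC9, against 591 and 619 FPKM in dormant HCC827. Their dormant differences were -5.28, -6.16 and -5.11 on the log2(FPKM + 1) scale, beside -6.39 for CDK4, and all 4 genes were shared with DMSO. The run was not unbroken. B4GALNT1, between PIP4K2C and OS9, was low in both lines and higher in dormant PC9 by 0.59. MARCH9, on the other side of CDK4 and low in both lines, was lower in dormant PC9 by a difference of -0.92 (adjusted p = 0.0117, limma) and shared. Further out, CTDSP2 and ATP23 were also lower, with differences of -0.92 and -1.26 (adjusted p = 0.0189 and 0.00369, limma). DCTN2 and METTL1 differed by -0.93 and -0.61 and were not called (adjusted p = 0.324 and 0.392, limma), nor were MBD6, EEF1AKMT3 and TSFM.

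The lines also differed by chromosome. On chromosome 14, 44.7% of 445 tested genes were lower in dormant PC9, against 22.2% over all genes, with a median difference of -0.88 in dormant cells and -0.70 in DMSO. On chromosome 4 the share was 36.0% of 489 genes, with medians of -0.64 and -0.47. On chromosome 7, which carries EGFR, 12.4% of 630 genes were lower, with medians of 0.14 and 0.26. Neighbouring genes are not independent, and these shares carry no test.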
